A study of Chromochloris zofingiensis with 14 samples.

Results

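Small-protein genes that contain introns were described in the deposited gene annotation of Chromochloris zofingiensis, a unicellular green alga that builds up carotenoids and storage lipids. Members were chosen by 2 measured values, a summed coding length of 300 bases or less and at least 2 coding segments. On the 19 chromosomes 504 of 14427 gene models met both, 3.49% (95% interval 3.20 to 3.81), out of 15369 models in the whole annotation. The comparison set was the 1805 intron-containing chromosomal genes of 900 to 1200 coding bases.

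The series holds 14 libraries of strain SAG 211-14, 1 for each growth condition, so no condition had a replicate. The conditions were low, medium and high light (40, 100 and 400 μmol photons m−2 s−1), 48 h of dark, 1 h without nitrogen, phosphorus, sulfur or iron, 2 h of hydrogen peroxide at 1 mM, and rose bengal, a photosensitizer, at 5 μM in 2 schedules. These were 0.5 h dark then 1 h light, and 1 h dark then 3 h light; the remaining conditions were 72 h with glucose at 20 mM and anaerobic culture for 4 h, once lit and once dark. The file analysed here is an annotation of the whole series and holds no value of any library, so expression, read depth and differences between conditions were not analysed here.

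An intron is a stretch of a gene that is cut out of its transcript before translation. Its phase tells where it interrupts the reading frame. A phase 0 intron lies between codons, a phase 1 intron after the first base of a codon and a phase 2 intron after the second base. Small proteins include subunits of the photosystems and of the respiratory chain, electron carriers and adaptors of proteases. A gene model this short offers little coding sequence to a gene prediction program, and whether these models are translated was not tested.

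Every value below describes gene models. Genes are not independent replicates and no test was run. Intervals on shares are exact Clopper-Pearson intervals of 95% and cover counting error only. Spread is given as the SD over the 19 chromosomes, with the number of chromosomes that show each direction. The rule used coding length and the presence of introns, so intron number, segment lengths and the intron share of a gene are descriptions that the rule bounds.

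Of the 504 members, 5 carried a name in the annotation, 0.992%, against 98 of the 1805 comparison genes, 5.43%, and 3.41% of all chromosomal genes. Among the 434 genes of 300 coding bases or less without introns 1 was named, 0.230%, so few names were not particular to members. The 5 named members had 1 intron each. Both photosystems were represented. PSAK (Cz06g26010, chromosome 6, 2604357 to 2604815), described as subunit K of photosystem I, which in plants and green algae lies at the edge of the complex next to light-harvesting proteins, had 234 coding bases in segments of 139 and 95. Its intron was 225 bases long and in phase 1, and its model score was 0.98. PSBX (Cz17g16010, chromosome 17, 1601317 to 1601966), a small membrane subunit of photosystem II, had 222 coding bases in segments of 122 and 100. Its intron of 428 bases, in phase 2, was the longest among the named members and took 65.8% of the gene. Its model score was 0.81.

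CYC4 (Cz17g14110, chromosome 17, 1431977 to 1432407) is described as cytochrome c, a mobile electron carrier. It had 270 coding bases in segments of 174 and 96, with a phase 0 intron of 161 bases, the shortest intron and the lowest intron share of the named members (37.4%). Its model score was 0.82. CLPS1 (Cz03g30050, chromosome 3, 3021686 to 3022138) bears the name used in plants for an adaptor of the Clp protease, and the annotation gives it no description. It had 219 coding bases in segments of 102 and 117, with a phase 0 intron of 234 bases. Its model score was 0.97, and its neighbours lay 3666 bases upstream and 3680 bases downstream.

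The fifth named member is PRK (Cz07g08080, chromosome 7, 832861 to 833414), described as phosphoribulokinase, the enzyme that regenerates the substrate of Rubisco in the Calvin cycle. The model had 258 coding bases in segments of 49 and 209, room for 86 codons with the stop codon, with a phase 1 intron of 296 bases and a score of 0.74. It was the 1 gene of the annotation named PRK. Phosphoribulokinase of other algae and plants is a much longer protein. The next gene downstream, Cz07g08090, lay 311 bases away on the same strand, had 765 coding bases and a score of 0.76, and carried no name. Whether both models belong to 1 gene was not tested.

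The word list for photosystem or light-harvesting proteins matched 2 members, PSAK and PSBX, of 28 chromosomal genes that it matched in all. The list for cytochrome, NADH, ATP synthase or oxidase matched 0 members and missed CYC4, whose description reads Cyt c. The lists for ribosomal proteins, ubiquitin or SUMO, histones, and Sm or LSm proteins matched 0 genes of any length on the chromosomes. Those for thioredoxin, glutaredoxin or ferredoxin, for acyl carriers, for Tim, Tom or Tic, and for chaperonins matched 0 members. Names covered so few genes that these counts say little about what the unnamed members encode.

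**Figure D1:**
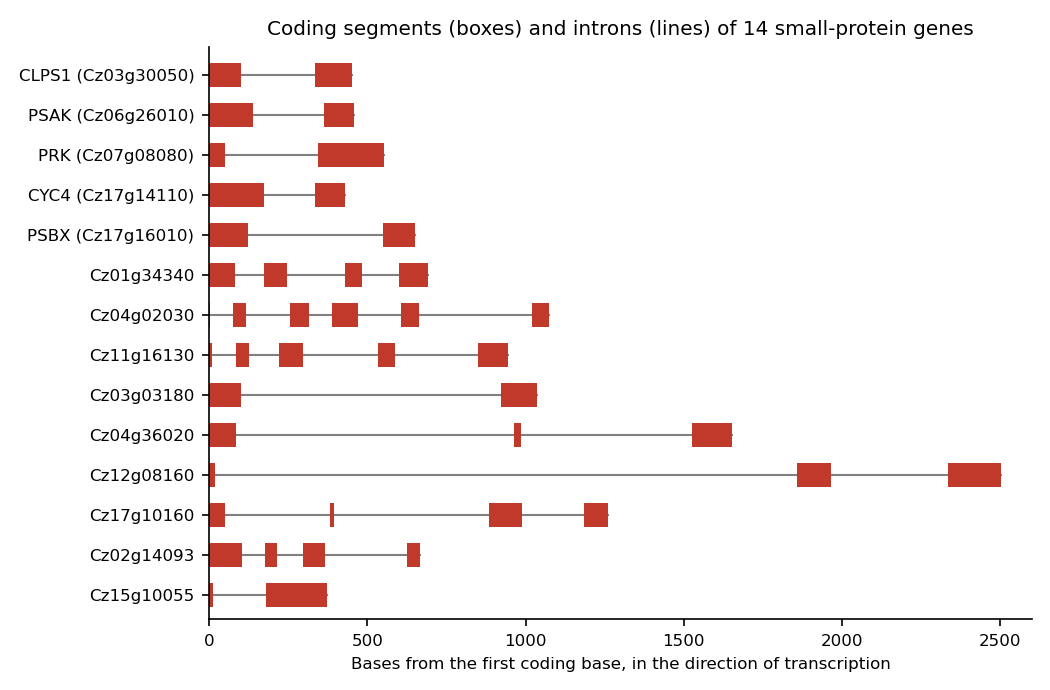
Coding segments (boxes) and introns (lines) of 14 members drawn to scale in bases from the first coding base, in the direction of transcription: the 5 named members, then those with most introns, the longest introns, the highest intron share, and the 2 manual models. The first segment of Cz04g02030 is 3 bases long and shows only as the edge of the drawing, and Cz12g08160 reaches 2503 bases.

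Coding lengths ran from 201 to 300 bases, that is 67 to 100 codons with the stop codon, with a median of 252. The lower end is that of the chromosomal models, among which 201 bases was the shortest coding length. The shortest in the whole annotation was 62 bases, on sequence outside the chromosomes. The length of 201 bases was shared by 16 chromosomal genes, 10 of them members. The first 3 of these by position were Cz01g00260 (chromosome 1, 88464 to 88799), Cz01g03080 (chromosome 1, 316562 to 316961) and Cz02g34180 (chromosome 2, 3475973 to 3476271). Their introns were 135, 199 and 98 bases long and their model scores 0.36, 0.87 and 0.58. At the upper end, the 53 members of 291 to 300 bases had a mean of 1.36 introns, a median intron of 236.5 bases and a median score of 0.76. The 49 intron-containing genes of 301 to 310 bases, just outside the rule, had 1.22 introns, 250 bases and 0.71.

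Members made up 53.7% (50.5 to 57.0) of the 938 chromosomal genes of 300 coding bases or less, so the other 434 had no intron. Among genes of 900 to 1200 coding bases 88.1% (86.6 to 89.5) had introns. The share did not rise steadily with coding length. It was 59.6% (54.2 to 64.9) at 201 to 240 bases, 50.4% (44.4 to 56.3) at 241 to 270 and 50.3% (44.6 to 56.0) at 271 to 300. It stayed at 51.2% (45.8 to 56.5) for 301 to 330 bases and reached 72.2% (70.0 to 74.4) at 421 to 600. The intervals of the first bin and of the next ones overlap at their edges, and the difference between bins was not tested.

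**Figure D2:**
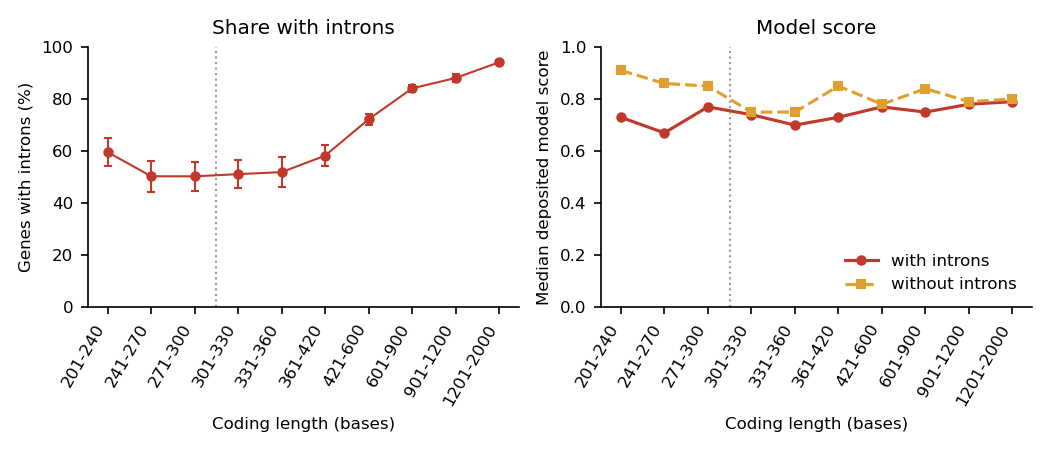
Share of chromosomal genes that have introns, with 95% Clopper-Pearson intervals (left), and median deposited model score of genes with and without introns (right), by coding length in bases; the dotted line marks 300 bases. The share lies between 50.3% and 59.6% in the bins up to 360 bases. Genes without introns have the higher median score in every bin drawn. The medians are 0.85 to 0.91 against 0.67 to 0.77 in the bins up to 300 bases, 0.85 against 0.73 at 361 to 420 and 0.79 against 0.78 at 901 to 1200.

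The number of members per chromosome ran from 7 on chromosome 19 to 43 on chromosome 4. As a share of each chromosome's genes it was lowest on chromosome 19 (2.46%) and highest on chromosome 16 (5.16%), with a mean of 3.56% ± 0.77 (SD, n = 19 chromosomes). Chromosome 16 also held most members per Mb, 14.2, and chromosome 17 fewest, 5.57. Chromosomes 17 and 18 held 21 members, 10 and 11. On the unplaced contigs, which the rule leaves out, 50 of 847 genes met the same criteria, 5.90% (4.41 to 7.71), an interval that lies above the 3.20 to 3.81% of the chromosomes. These shares do not have the same lower limit of length. No chromosomal model had under 201 coding bases, whereas 52 models on unplaced or organelle sequence did. How many of the 50 were that short was not counted.

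A single intron was the usual structure. Of the 504 members, 403 had 1 intron, 87 had 2 (17.3%), 12 had 3, 1 had 4 and 1 had 5. The mean was 1.23 introns, against 3.76 in the comparison genes, and it was lower on 19 of 19 chromosomes. Per kilobase of coding sequence the order turned round, with 4.92 introns in members and 3.59 in comparison genes, and members were higher on 19 of 19 chromosomes. Every member has at least 1 intron and at most 300 coding bases by the rule, which sets a floor under its density.

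Cz04g02030 (chromosome 4, 215208 to 216281) had most introns. Its 300 coding bases were divided into segments of 3, 42, 60, 84, 58 and 53 bases. The introns between them were 72, 138, 73, 134 and 357 bases long, the first 4 in phase 0 and the last in phase 1. Its model score was 1. Cz11g16130 (chromosome 11, 1638641 to 1639585) had 4 introns of 74, 96, 237 and 265 bases, a first segment of 10 bases and a score of 0.57. Of the 12 members with 3 introns, the first by position was Cz01g34340 (chromosome 1, 3489145 to 3489837), with 300 coding bases, introns of 92, 184 and 117 bases and a score of 1. In all 3 genes the shortest intron was the first one.

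The 622 introns of the members had a median length of 238 bases, with the middle 50% between 165 and 322 and the extremes at 42 and 1839. The 6786 introns of the comparison genes had a median of 259 bases, with the middle 50% between 201 and 323. The member median was lower on 13 of 19 chromosomes and higher on 6, and the mean difference over chromosomes was −14.2 bases ± 31.6 (SD, n = 19 chromosomes), smaller than its spread. The lower median is not seen for all first introns pooled, for which it was 238.5 bases in members and 237 in comparison genes. In genes with 1 or 2 introns the median first intron was shorter in members. It was 242 against 250.5 bases with 1 intron and 219 against 257 with 2.

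The 2 sets differed more in the tails than in the middle. Introns of 100 bases or less made up 12.1% of the member introns and 5.35% of the comparison introns, a difference of 6.71 percentage points. It was positive on 15 chromosomes, negative on 3 and 0 on 1, and its mean of 5.60 percentage points was smaller than its SD of 6.25 (n = 19 chromosomes). Among first introns the shares were 11.3% (8.68 to 14.4) in members and 12.2% (10.8 to 13.8) in comparison genes, and these intervals overlap. Among later introns they were 15.3% (9.30 to 23.0), 18 of 118, and 2.85% (2.41 to 3.35), 142 of 4981, and these do not. Among genes with exactly 1 intron the shares were 9.68% (6.97 to 12.99) and 4.47% (2.25 to 7.86), whose intervals overlap. In 2-intron genes they were 12.6% (6.48 to 21.5) and 4.30% (2.24 to 7.39) for first introns, with overlapping intervals. For second introns they were 16.1% (9.09 to 25.5) and 1.43% (0.392 to 3.63), and these do not overlap. Short later introns were found at each level of model score, in 5 of 22 later introns of members scored under 0.5, 7 of 47 scored from 0.5 to under 0.9 and 5 of 47 scored 0.9 or more. Introns under 71 bases were rare, with 14 of 622 in members, 2.25% (1.24 to 3.75), and 17 of 6786 in comparison genes, 0.251% (0.146 to 0.401).

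Introns of 500 bases or more made up 4.82% of the member introns and 1.95% of the comparison introns. The share was higher in members on 14 chromosomes and lower on 5, and its mean difference of 2.07 percentage points lay within the SD of 6.59 over the 19 chromosomes. For first introns the shares were 4.76% in members and 2.55% in comparison genes. For later introns they were 5.08% and 1.73%. The intervals overlap for first and for later introns. For all introns pooled they were 3.28 to 6.81 in members and 1.63 to 2.30 in comparison genes, and these do not overlap. Among genes with exactly 1 intron the shares were 4.47% (2.67 to 6.97) and 3.66% (1.69 to 6.83), whose intervals overlap. In 2-intron genes they were 6.90% (3.61 to 11.7) and 1.61% (0.740 to 3.04), and these do not overlap. Counted per gene over all intron numbers the order turned, as 5.75% (3.89 to 8.16) of members and 6.87% (5.75 to 8.14) of comparison genes, which have more introns each, held such an intron. It did not turn among genes with 1 intron or with 2. With 2 introns 12.6% (6.48 to 21.5) of members and 3.23% (1.49 to 6.04) of comparison genes held one. The longest intron, 1839 bases, was the first of 2 in Cz12g08160 (chromosome 12, 864195 to 866697), which follows a first segment of 20 bases. That gene spans 2503 bases for 294 coding bases and has a score of 0.42. Cz04g36020 (chromosome 4, 3603534 to 3605185) had introns of 879 and 542 bases around an internal segment of 20 bases, and a score of 0.21. Cz03g03180 (chromosome 3, 376304 to 377340) had a single intron of 821 bases between segments of 102 and 114 bases, and its score was 1.

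**Figure D3:**
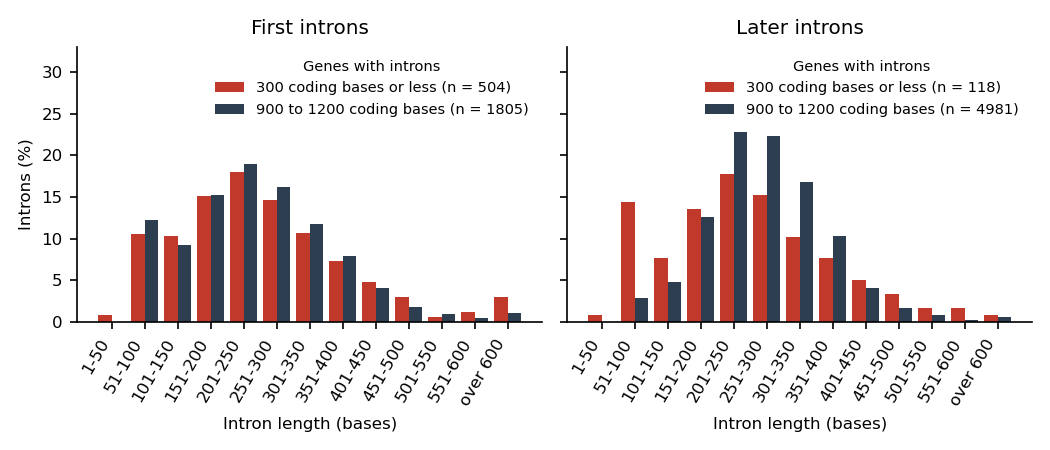
Lengths of first introns (left) and later introns (right) in bins of 50 bases, as a percentage of the introns of members (red) and of comparison genes of 900 to 1200 coding bases (dark). Pooled over intron numbers, first introns have similar medians in both sets (238.5 and 237 bases). Of these, 4.76% in members and 2.55% in comparison genes have 500 bases or more. Of later introns, 15.3% in members and 2.85% in comparison genes are 100 bases or less.

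Introns took a median of 52.1% of the gene span in members and 48.1% in comparison genes. The share was higher in members on 18 of 19 chromosomes, with a mean difference of 4.50 percentage points ± 3.97 (SD, n = 19 chromosomes). In 56.5% (52.1 to 60.9) of the members the introns held more bases than the coding segments. The share rose with intron number, from a median of 49.2% in members with 1 intron to 63.9% in those with 2. Genes of 900 to 1200 coding bases with 1 intron had a median of 19.8%. The median intron of those 1-intron genes had 250.5 bases, against 242 in 1-intron members. The highest shares were 88.3% in Cz12g08160, 86.0% in Cz04g36020 and 80.5% in Cz17g10160 (chromosome 17, 1074122 to 1075383), a gene with 3 introns of 332, 490 and 194 bases and a score of 0.23. The lowest share of any member was 14.4%. The whole gene spanned a median of 526.5 bases, from 265 to 2503.

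Phase 0 was the most frequent phase, and less so than in the comparison genes. It held 43.9% (39.9 to 47.9) of the member introns, phase 1 held 28.6% (25.1 to 32.4) and phase 2 held 27.5% (24.0 to 31.2). In the comparison genes the shares were 52.0% (50.8 to 53.2), 26.4% (25.3 to 27.5) and 21.6% (20.7 to 22.6). Phase 0 was less frequent in members on 15 of 19 chromosomes and more frequent on 4, and the mean difference of −9.52 percentage points was smaller than its SD of 10.6 (n = 19 chromosomes). With the comparison restricted to introns within the first 300 coding bases, phase 0 held 50.6% (48.5 to 52.6) there.

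The phases were also compared at equal intron number. In members with 1 intron phase 0 held 40.4% (35.6 to 45.4), and in 1-intron comparison genes 43.1% (36.8 to 49.5), and these intervals overlap. Phase 2 held 29.0% (24.6 to 33.7) in the former and 18.3% (13.7 to 23.7) in the latter, and these intervals do not overlap. With 2 introns phase 2 held 27.0% (20.6 to 34.3) in members and 22.2% (18.8 to 25.9) in comparison genes, with overlapping intervals. For phase 0 the order turned with 2 introns, at 51.7% (44.0 to 59.4) in members and 48.9% (44.7 to 53.2) in comparison genes, with overlapping intervals. First introns of these genes kept the order, with 47.1% (36.3 to 58.1) in members and 50.9% (44.9 to 56.9) in comparison genes. Second introns turned it, with 56.3% (45.3 to 66.9) and 47.0% (41.0 to 53.0). Both pairs of intervals overlap. Both introns were in phase 0 in 23 of the 87 members with 2 introns, 26.4%, the most frequent pair. Phase 0 held 38.4% of the introns of members scored under 0.5, 44.6% of those scored from 0.5 to under 0.9 and 47.0% of those scored 0.9 or more. The corresponding shares in the comparison genes were 52.7%, 50.8% and 53.1%. Phase 2 held 33.3%, 27.5% and 23.0% at the same score levels in members, and 21.9%, 22.2% and 21.0% in comparison genes. For phase 2 the 2 sets lay closest at scores of 0.9 or more. For phase 0 they lay about equally far apart there and at 0.5 to under 0.9. Later introns made up 22 of 138, 47 of 280 and 47 of 200 member introns at these levels, so intron number was not held equal.

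**Figure D4:**
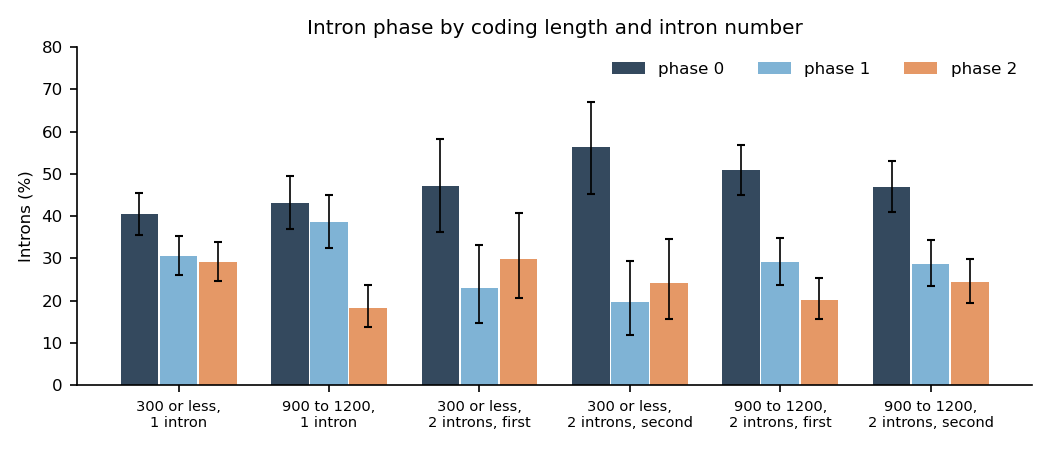
Percentage of introns in phase 0, 1 and 2 for genes with 1 intron and for the first and second intron of genes with 2, in members (300 or less) and in genes of 900 to 1200 coding bases; error bars are 95% Clopper-Pearson intervals. Among 1-intron genes phase 2 reaches 29.0% in members and 18.3% in the longer genes.

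The position of introns along the coding sequence differed most between genes with 1 intron. Over all introns the median position was 40.6% of the coding sequence in members and 41.7% in comparison genes. The middle of 3 equal stretches held 44.7% (40.7 to 48.7) of all member introns and 37.8% (36.7 to 39.0) of comparison introns. Of the introns in 1-intron members, 39.2% (34.4 to 44.2) lay in the first stretch, 46.7% (41.7 to 51.7) in the middle one and 14.1% (10.9 to 17.9) in the last. In 1-intron comparison genes 60.6% (54.2 to 66.7), 19.1% (14.4 to 24.6) and 20.3% (15.5 to 25.9) did. In 2-intron genes the middle stretch held 40.8% (33.4 to 48.5) in members and 39.1% (35.0 to 43.3) in comparison genes. First segments had a median of 87.5 bases and last segments 136, against 160 and 270 in the comparison genes.

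Very short coding segments were more frequent than in the longer genes, and the rule's limit on coding length bounds segment length. Segments of 30 bases or less made up 8.35% (6.80 to 10.1) of 1126 member segments and 1.21% (0.990 to 1.46) of comparison segments, and the share was higher in members on 18 of 19 chromosomes. Most of these were first segments, 73 of the 94. Internal segments of 30 bases or less numbered 5 of 118. The first segment had 50 bases or less in 27.4% (23.5 to 31.5) of members and 10.4% (9.04 to 11.9) of comparison genes. It was 3 bases long, the length of a start codon, in 7 members, 1.39% (0.560 to 2.84), and in 6 comparison genes, 0.332% (0.122 to 0.722). An internal segment whose length is a multiple of 3 can be left out without shifting the reading frame. In members 37.3% (28.6 to 46.7) of internal segments were of such length, against 40.2% in comparison genes.

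The source column gives AUGUSTUS, which predicts genes from sequence, for 502 members and manual for 2. The manual models carry no score. Cz02g14093 (chromosome 2, 1423268 to 1423935) had 3 introns of 73, 80 and 260 bases, and Cz15g10055 (chromosome 15, 1013100 to 1013472) had 1 of 166 bases after a first segment of 13. The file does not say what its score stands for. The median score was 0.73 in members, 0.78 in comparison genes and 0.87 in the 434 short genes without introns. It was 0.80 in genes of 900 to 1200 coding bases without introns. Members had the lower median on 14 of 19 chromosomes against comparison genes, the higher on 4 and the same on 1, and the mean difference of −0.08 lay within its SD of 0.15 (n = 19 chromosomes). Among 1-intron genes the medians were 0.72 in members and 0.78 in comparison genes. With 2 introns the order turned, with 0.79 in members and 0.74 in comparison genes. A score of at least 0.9 was found in 30.5% (26.5 to 34.7) of scored members, 35.9% (33.7 to 38.2) of comparison genes and 45.9% (41.1 to 50.7) of short genes without introns.

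The range of the members' scores ran from 0.19 to 1. The lowest belonged to Cz04g38250 (chromosome 4, 3877329 to 3877978) and Cz07g24020 (chromosome 7, 2422270 to 2422698), both at 0.19, followed by Cz04g36020. A score of 1 was given to 55 members, of which the first by position were Cz01g08210 (chromosome 1, 868563 to 869287), Cz01g15030 (chromosome 1, 1507703 to 1508035) and Cz01g33220 (chromosome 1, 3396971 to 3397465). Cz01g08210 opened with a segment of 3 bases and closed with one of 23. Members with 1 intron had a median score of 0.72, those with 2 introns 0.79 and the 13 scored members with 3 or more introns 0.62.

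Members lay closer to the next gene downstream than comparison genes did. The median distance from coding region to coding region was 666 bases in members, 1012 in comparison genes and 737 in short genes without introns. It was lower in members than in comparison genes on 19 of 19 chromosomes, by a mean of −413 bases ± 309 (SD, n = 19 chromosomes). Upstream the medians were 789, 945.5 and 689 bases. There members had the lower median on 13 chromosomes and the higher on 6, and the mean difference of −153 bases was within its SD of 212 (n = 19 chromosomes). The annotation marks coding segments only, so these distances take in any untranslated sequence.

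**Figure D5:**
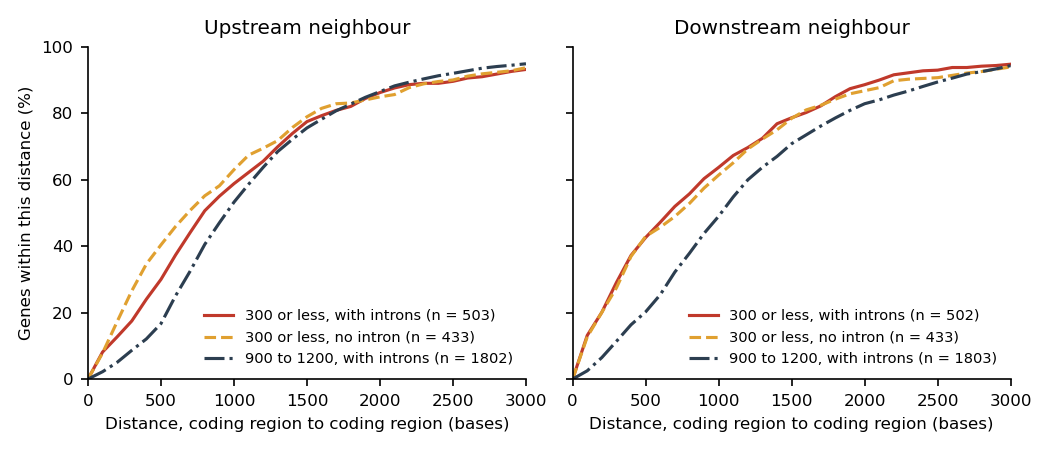
Cumulative percentage of genes whose upstream (left) or downstream (right) neighbour lies within a given distance in bases, for members, short genes without introns and genes of 900 to 1200 coding bases. Downstream, both sets of short genes lie above the longer genes with introns, with 13.1% of members and 2.496% of those longer genes within 100 bases. Genes of 900 to 1200 coding bases without introns are not drawn and had 8.23%.

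A neighbour on either side lay within 100 bases for 100 of the 504 members, 19.8% (16.4 to 23.6). The share was 19.1% (15.5 to 23.2) in short genes without introns and 4.54% (3.63 to 5.61) in comparison genes. It was 20.7% in members scored under 0.5 and 22.2% in those scored 0.9 or more. The upstream neighbour was that close in 41 members, and in 28 of these it lay on the same strand. The downstream neighbour was that close in 66, of which 33 lay on the same strand.

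Over all members, 55.3% (50.8 to 59.7) shared the strand of the upstream neighbour, against 45.6% (43.3 to 48.0) of comparison genes. The share was higher in members on 16 of 19 chromosomes and lower on 3, with a mean difference of 9.86 percentage points ± 9.54 (SD, n = 19 chromosomes). Among 1-intron genes it was 55.7% (50.7 to 60.6) in members and 53.7% (47.2 to 60.02) in comparison genes, and these intervals overlap. Genes without introns had 57.7% (52.9 to 62.4) at 300 coding bases or less and 58.0% (51.5 to 64.3) at 900 to 1200, so the higher share was not particular to members. For the downstream neighbour the shares of all members and all comparison genes were 47.4% (43.0 to 51.9) and 48.1% (45.8 to 50.4).

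Members were next to each other in 29 pairs, of which 16 lay on the same strand, 8 converged and 5 diverged. A member stood beside 11.5% (8.86 to 14.6) of members, 8.29% (5.88 to 11.3) of short genes without introns and 6.98% (5.85 to 8.26) of comparison genes. The share of members counts both genes of each pair, so its interval is too narrow. The 5 closest pairs lay 21 to 36 bases apart. Cz04g38250 converged with Cz04g38260 (chromosome 4, 3878000 to 3878767) at 21 bases, with scores of 0.19 and 0.94. Cz03g10040 (chromosome 3, 1019404 to 1020112) followed Cz03g10050 (chromosome 3, 1020139 to 1020727) on the same strand at 26 bases, with scores of 0.97 and 0.94. Cz05g14200 and Cz05g14210 (chromosome 5, 1499107 to 1499524 and 1499557 to 1499833) converged at 32 bases.

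The other 2 pairs shared a strand. Cz09g23120 and Cz09g23130 (chromosome 9, 2331386 to 2331905 and 2331941 to 2332326) lay 35 bases apart and had 213 coding bases each, in segments of 93 and 120 and of 158 and 55, so their structures were not alike. Cz12g06050 and Cz12g06060 (chromosome 12, 626183 to 626814 and 626851 to 627359) lay 36 bases apart, with scores of 0.39 and 0.92. Whether close pairs on 1 strand are parts of 1 gene was not tested.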

How the data were processed

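The authors deposited 1 gene annotation for the whole series, in which positions count from 1. Its models are labelled AUGUSTUS or manual in the source column. The genome build, program version and filters are, for this annotation, not given in the sources used here. Deposited model scores were used as given: each score is the authors' value. STAR 2.4.0j and Cuffdiff 2.2.1 are listed, without their roles, in the submitters' processing notes. No genome sequence was used here, so splice sites and sequences were not analysed.

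Segment lengths were summed to a coding length, and the gaps between segments were taken as introns. The phase computed from segment lengths equalled the phase field in 58871 of 58871 chromosomal introns. Neighbours are the next chromosomal genes on either side. Values were computed with Python 3.11.15, pandas 2.3.3 and SciPy 1.17.1, after the scripts had been tested on a made-up annotation of known structure. Samples entered no comparison.

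The members, measures and lists were chosen with earlier results of these data known. Genes named are those with a name, the 3 most extreme members for intron number, intron length, intron share, coding length and score, manual models and the 5 closest pairs, with ties broken by position. Cz07g08090, the splits by score and the values on unplaced contigs were added after their values were seen.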

Additional observations from a re-analysis of the deposited data

How the results depend on the processing

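Member values minus comparison values were recomputed under alternative limits, comparison sets and filters. Of 150 recomputed values, 142 kept their direction and moved by less than 1 SD over the 19 chromosomes, or by less than 1.5 times for the count of members. The SD was larger than the difference itself for some measures. Among them were phase 0 (−8.08 percentage points, SD 10.6) and median intron length (−21 bases, SD 31.6). For such measures a large relative change still counted among the 142, so this count is a weak measure of stability. The median intron length difference of −21 bases became 1.5 bases with first introns only, pooled over intron numbers. The difference in introns of 100 bases or less then turned from 6.71 to −0.93 percentage points. The difference in intron share of 3.98 percentage points became 29.3 among genes with exactly 1 intron and 1.62 against genes of 600 to 900 coding bases. The difference of −2.53 introns per gene became −1.82 against genes of 600 to 900 coding bases and −3.78 against all longer genes with introns, and that in introns per kilobase moved from 1.33 to 1.94 in the latter. With limits of 240 and 360 coding bases there were 204 and 842 members. With scores of 0.5 or more 386 members remained, and the phase 0 difference was −6.23 instead of −8.08 percentage points. Among genes with 1 intron it was −2.64. Leaving out each chromosome in turn gave phase 0 differences of −8.80 to −6.94 and downstream distances of −357.5 to −339 bases. Every chromosomal coding length was a multiple of 3, so that alternative changed nothing, and its values are among the 142. No paired analysis was possible because each condition had 1 sample and the file holds no sample values.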

Other observations

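Ordered segment lengths were compared between members. There were 12 patterns held by more than 1 member, covering 26 members, and none was shared together with the same intron lengths. The most frequent pattern, segments of 120 and 117 bases, was held by Cz02g21140, Cz02g25080, Cz10g21190 and Cz15g15010, whose introns were 233, 118, 85 and 229 bases long.

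The downstream distance of genes with introns was compared across coding lengths. Its median was 534 bases at 201 to 240 coding bases, 705 at 241 to 270, 817 at 271 to 300, 830 at 301 to 330, 825 at 331 to 360, 925 at 421 to 600 and 1079 at 1201 to 2000. The share of introns of 100 bases or less was 11.4 to 13.7% in the bins up to 420 coding bases and 4.05% at 1201 to 2000.

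Among 1-intron genes whose intron had 100 bases or less, the median model score was 0.76 in 39 members and 0.97 in 11 comparison genes. With introns of 101 to 200 bases the medians were 0.71 in members and 0.80 in comparison genes. With introns of 201 to 300 bases they were 0.73 in 134 members and 0.74 in 102 comparison genes. At 301 to 500 bases they were 0.70 and 0.79. Over 500 bases they were 0.70 and 0.71, for sets of only 18 and 9 genes.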
